A study of Homo sapiens with 18 samples.

Results

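HUDEP-2 cells whose HBB gene had been disrupted (HBBko) were compared with unedited HUDEP-2 cells (WT) after 48 h of differentiation, using the 3 libraries of each line at that time, 6 of the 18 libraries of the series. HUDEP-2 is an established line of erythroid progenitors made from human umbilical cord blood, which matures toward red cells in culture and makes mainly adult globin. The other 12 libraries are the same lines undifferentiated and after 5 d of differentiation, and were used only to ask whether a difference seen at 48 h was also that of the other stages. WT and HBBko differ in the state of HBB alone as far as the labels say, and both carry the immortalising construct of HUDEP-2. The number of HBBko clones, the edit itself and whether the 3 cultures of a group were started independently are not given in the sources used here. The p-values below therefore measure the spread between these libraries, which may be technical. Of 35616 genes in the authors' table, 10857 had at least 1 scaled TPM (transcript abundance by the TPM measure, scaled further between libraries by the authors) in 3 or more of the 6 libraries and were tested.

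The purpose of the comparison, as the series design states it, is the RNA of cells with and without an intact HBB gene. Adult hemoglobin pairs alpha-globin with beta-globin chains, and beta-thalassemia is the anemia that follows when beta-globin is lacking and unpaired alpha-globin is left over. The beta-like genes lie in a cluster in the order of their use in development, from embryonic HBE1 over the fetal pair HBG1 and HBG2 to adult HBD and HBB, and the fetal pair is normally silenced in adult cells by repressors such as BCL11A and ZBTB7A. In erythroid cells the heme-regulated kinase EIF2AK1 (HRI) links a lack of heme or unfolded globin to phosphorylation of eIF2alpha, which slows translation in general and favours that of ATF4, a transcription factor of amino acid synthesis, amino acid uptake and tRNA charging genes.

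The number of reads per library is unknown, since the files hold scaled TPM and not counts, so no counting error can be given. Library sums were 847705 to 861071 scaled TPM in HBBko and 916576 to 984482 in WT, and between 10724 and 10795 genes reached 1 scaled TPM in a library. Across the tested genes, libraries of a line correlated at 0.998 in HBBko and 0.996 to 0.998 in WT, and libraries of different lines at 0.986 to 0.991 (genes are not independent replicates). The first principal component held 72.6% of the variance and separated the lines; the second held 10.5% and set WT replicate 3 apart from the other libraries. Mitochondrially encoded transcripts took 7.18% to 7.79% of the sum in HBBko and 5.04% to 5.72% in WT. All 15 erythroid markers passed the filter on low values, whereas of 64 markers of myeloid, megakaryocytic, mast, lymphoid, stromal and endothelial cells 7 did, and 57 stayed under 1 scaled TPM in all 6 libraries.

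HBB, the disrupted gene (chr11:5225464-5229395, minus strand, GRCh38), checks the labels and was read first. It measured 22102, 22926 and 24265 in HBBko and 99196, 103106 and 132741 in WT (scaled TPM), on average 23097 ± 1092 scaled TPM against 111681 ± 18343 (SD, n = 3 each). The groups did not overlap, so HBB RNA remained abundant in HBBko but was 4.84-fold lower (log2 fold change -2.26 ± 0.10 (SE), adjusted p = 7.2e-06, limma). The adult delta-globin gene HBD, a minor partner of alpha-globin in adult hemoglobin, measured 27.2, 24.8 and 32.00 in HBBko and 62.7, 67.5 and 94.4 in WT, and also fell (log2 fold change -1.37 ± 0.15 (SE), adjusted p = 0.00043). WT replicate 3 was the highest of the 6 libraries for both genes. The fetal genes went the other way. HBG1 measured 496, 561 and 528 in HBBko and 141, 149 and 192 in WT, a 3.29-fold higher mean (log2 fold change 1.72 ± 0.10 (SE), adjusted p = 2.7e-05). HBG2 measured 5879, 6247 and 6339 in HBBko and 1764, 1994 and 2763 in WT, a 2.83-fold higher mean (log2 fold change 1.53 ± 0.14 (SE), adjusted p = 0.0002). Even the highest WT library stood below every HBBko library for both fetal genes, although the 2 genes are near-identical in sequence and the split of reads between them is uncertain. Embryonic epsilon-globin HBE1 rose too, from a low level (4.12, 4.01 and 4.21 in HBBko and 1.49, 1.26 and 1.24 in WT; log2 fold change 1.14 ± 0.07 (SE), adjusted p = 2.6e-05). HBBP1, a pseudogene between the fetal and adult genes, had the second largest increase of all tested genes, with 374, 375 and 389 in HBBko and 63.01, 66.7 and 80.5 in WT (log2 fold change 2.43 ± 0.08 (SE), adjusted p = 1.7e-06). In the annotation used here the span of HBD holds that of HBBP1, and the spans of HBE1 and HBG2 overlap. How reads were assigned between these genes was not tested. All 6 beta-like genes were called, 4 higher and 2 lower, in a table where 39.1% of all tested genes passed (22.1% upward, 17.0% downward).

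Within the beta-like cluster the proportions shifted accordingly. HBB made up 76.5% ± 0.413 in HBBko and 97.8% ± 0.149 in WT of the summed beta-like scaled TPM (SD, n = 3 each), and HBG1 with HBG2 made up 22.1% ± 0.4199 in HBBko and 2.03% ± 0.147 in WT. The beta-like sum, here and in the ratio below, includes the pseudogene HBBP1 (1.26% in HBBko and 0.06% in WT). HBG2 provided 92.1% ± 0.295 in HBBko and 93.05% ± 0.456 in WT of the fetal pair, a small difference in a share that near-identical genes make uncertain. Alpha-like genes behaved differently from beta-like ones. HBA1 measured 44632, 43866 and 46668 in HBBko and 45716, 45232 and 57938 in WT. Its neighbour HBA2 measured 35757, 34754 and 37599 in HBBko and 36259.5, 35791 and 47336 in WT. The groups overlapped for both and neither was called (HBA1 -0.13, adjusted p = 0.27, and HBA2 -0.13, adjusted p = 0.32, limma). Both turned higher with quantile normalization (0.87 and 0.45), which sets each value by its rank in the library. HBA1 and HBA2 ranked above HBB in every HBBko library and below it in every WT library, so these values also carry the change in rank of HBB. Mu-globin HBM overlapped too (-0.21, adjusted p = 0.12). Theta-globin HBQ1 measured 95.6, 86.9 and 95.9 in HBBko and 101, 100.4 and 107 in WT and was called lower by a small amount (-0.15, adjusted p = 0.036), a call lost on leaving out any single library, after rescaling to equal sums, with quantile normalization, with no filter and over all 18 libraries. Embryonic zeta-globin HBZ (chr16:152687-154503, plus strand) measured 186, 194 and 200.4 in HBBko and 72.9, 66.6 and 73.9 in WT and rose 2.72-fold (log2 fold change 1.43 ± 0.05 (SE), adjusted p = 1.7e-06). The alpha-globin chaperone AHSP, which holds free alpha-globin until it is paired, was not called (2349.6, 2418 and 2473 in HBBko and 2389, 2496 and 2887 in WT; -0.10, adjusted p = 0.26). With alpha-like RNA taking 9.69% ± 0.292 in HBBko and 9.65% ± 1.09 in WT of the library sum and beta-like RNA 3.54% ± 0.129 in HBBko and 12.1% ± 1.504 in WT, the ratio of alpha-like to beta-like scaled TPM was 2.74 ± 0.0868 in HBBko and 0.8002 ± 0.0228 in WT. Each of these shares, other than that of alpha-like RNA in the library sum, was apart in all 3 libraries against all 3, which gives p = 0.1 in the two-sided exact permutation test, the smallest value it can reach with 3 against 3, and 0.12 after adjustment over the 13 shares computed. For alpha-like RNA of the library sum the same exact permutation test gave p = 1.0.

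**Figure D1:**
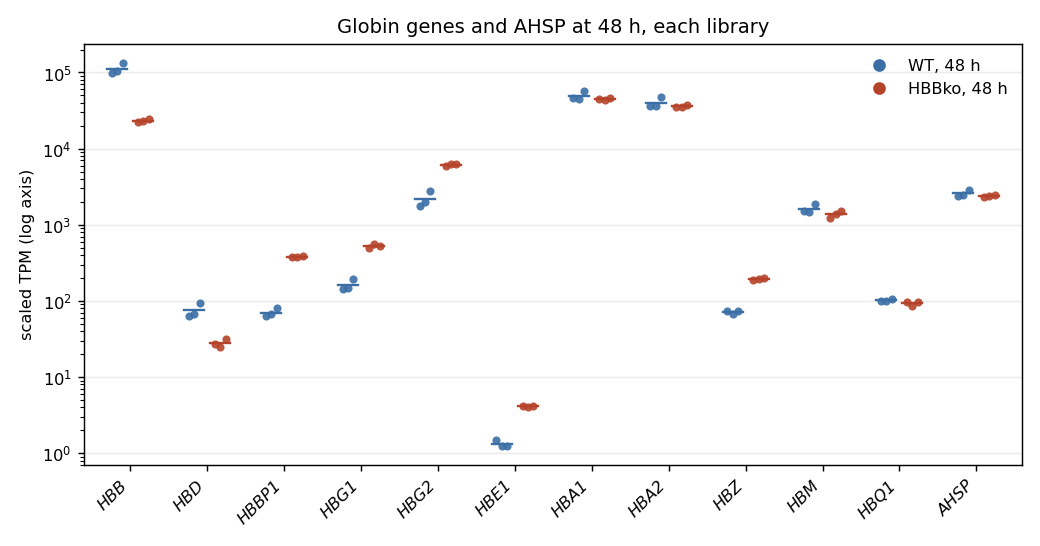
Scaled TPM of 11 globin genes and AHSP in each library at 48 h, on a log axis; points are the 3 libraries of WT (blue) and HBBko (red), and the short line is their mean. HBB, HBD and, by a small margin, HBQ1 lie lower in every HBBko library, HBBP1, HBG1, HBG2, HBE1 and HBZ higher in every one, and the points of HBA1, HBA2, HBM and AHSP overlap.

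Of 35 genes listed as repressors and corepressors of gamma-globin, 10 fell, 8 rose and 17 were not called (median 0.00, against 0.03 over all tested genes). The list also holds HIC2, which represses BCL11A itself, and LIN28B, IGF2BP1, IGF2BP2 and IGF2BP3 of the fetal programme, so its counts mix opposite roles. BCL11A, the main repressor of the fetal genes, measured 8.99, 8.25 and 8.54 in HBBko and 13.1, 13.4 and 12.6 in WT and fell (log2 fold change -0.55 ± 0.05 (SE), adjusted p = 0.00017), and the groups did not overlap. SOX6, a partner of BCL11A, fell as well (10.9 against 17.2 scaled TPM; -0.60, adjusted p = 0.0036), as did NFIX (-0.33, adjusted p = 0.00015) and HIC2, a repressor of BCL11A transcription (-0.31, adjusted p = 0.0015). ZBTB7A (LRF), the other main repressor, was lower by -0.28 (adjusted p = 0.0048), a call lost when libraries were rescaled to equal sums. The increases included the arginine methyltransferase PRMT5 (0.30, adjusted p = 0.004) and the histone demethylase KDM1A (0.21, adjusted p = 0.0063). With rescaling to equal sums the counts were 17 higher and 5 lower, and the higher count was 3 over all 18 libraries, 4 with no filter or without any single HBBko library and 5 without WT replicate 1. MYB, a transcription factor of proliferating progenitors, measured 69.7, 71.7 and 72.8 in HBBko and 79.1, 83.6 and 69.6 in WT and was not called (-0.11, adjusted p = 0.19). It was called lower without WT replicate 3 (-0.19, adjusted p = 0.0047) and with library weights (-0.17, adjusted p = 0.014).

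Among 24 erythroid transcription factors, 11 fell, 1 rose and 12 were not called (median -0.14); the counts were 6 lower and 7 higher after rescaling to equal sums and 6 lower and none higher in the fit over all 18 libraries. KLF1, the activator of adult beta-globin and of many red cell genes, measured 473, 465 and 498 in HBBko and 637, 633 and 716 in WT and fell (log2 fold change -0.46 ± 0.05 (SE), adjusted p = 0.00046). E2F2, a cell cycle factor of terminal erythroid divisions, fell by 0.58 on the log2 scale (24.7 against 37.9 scaled TPM), MXI1 by 0.52, KLF3 by 0.48 and KLF13 by 0.46 (adjusted p from 0.0012 to 0.0046). GATA1, the master factor of the lineage, measured 265, 247 and 264 in HBBko and 253, 249 and 264 in WT and was not called (0.02, adjusted p = 0.73), except as higher after rescaling to equal sums (0.16, adjusted p = 0.011, limma). In bulk RNA, fewer cells of a maturation stage and less RNA per cell cannot be told apart.

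At an adjusted p under 0.05, 4240 of the 10857 genes passed, of which 2398 had the higher level in HBBko and 1842 in WT. In 4213 of them no HBBko library overlapped a WT library, as in 54.1% of all tested genes. Most of these differences were small: 3702 of the called genes changed by under 0.5 on the log2 scale. At least 2-fold differences were fewer and mostly decreases, 114 genes in all, 25 higher and 89 lower. In the fit over all 18 libraries, whose spread pools 6 groups, 2189 genes were called and 110 at least 2-fold. Rescaling the libraries to equal sums moved the median of all genes from 0.03 to 0.15 and the share of calls that were higher from 56.6% to 85.1%, so directions below are relative to the authors' scaling. Other scalings stayed nearer the main fit. The share was 52.8% (median 0.02) with equal sums over all but the globin genes. It was 51.8% (median 0.01) with median-of-ratios scaling and 55.4% (median 0.02) with quantile normalization. Gene lists are described by their called members, beside 22.1% higher and 17.0% lower among all tested genes. Of 40 list counts of 1 to 5 members, 21 moved by over 1.5 times when a single library was left out, against 7 of 34 larger counts, each named beside its list.

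EYA4 (chr6:133240598-133532120, plus strand), which encodes a tyrosine phosphatase that also acts as a coactivator, increased most. It measured 10.7, 12.2 and 9.64 in HBBko and 0.404, 0.349 and 0.271 in WT (log2 fold change 3.14 ± 0.09 (SE), adjusted p = 1.6e-06), so it was under 1 scaled TPM in each WT library. The serpin SERPINB1, an inhibitor of neutrophil serine proteases, measured 6.73, 6.498 and 6.42 in HBBko and 0.875, 0.758 and 1.17 in WT (1.97, adjusted p = 6.7e-06). CNN3, which encodes the actin-binding protein calponin 3, measured 13.6, 13.7 and 13.9 in HBBko and 2.69, 2.67 and 3.12 in WT (1.95, adjusted p = 1.7e-06). CYTL1, a secreted protein first found in cord blood progenitors, measured 55.8, 51.8 and 56.97 in HBBko and 16.4, 15.9 and 14.5 in WT (1.75, adjusted p = 1.7e-06). After the globins followed PAPSS1, which makes the sulfate donor PAPS (1.38), SSUH2 (1.33), the heme-degrading enzyme HMOX1 (1.22), the protease subunit CAPN2 (1.19), TMEM161B (1.09) and BEX1 (1.06), all with adjusted p of 6.5e-05 or less. CBWD3 (1.13, adjusted p = 0.0071) belongs to a family of near-identical copies among which its reads may be split, and it lost its call with no filter on low values.

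Decreases were led by the RNA-binding protein gene RBMS1 (chr2:160272151-160493794, minus strand), which measured 0.253, 0.344 and 0.351 in HBBko and 10.3, 10.2 and 9.65 in WT (log2 fold change -3.07 ± 0.06 (SE), adjusted p = 2.9e-07). PLS3, which encodes the actin bundler plastin 3, measured 0.599, 1.03 and 0.652 in HBBko and 9.03, 8.69 and 8.77 in WT (-2.49, adjusted p = 3.4e-06). The homeobox gene PITX1 measured 0.414, 0.573 and 0.406 in HBBko and 4.61, 4.995 and 9.56 in WT (-2.28, adjusted p = 0.00023). Over these 3 genes no HBBko library exceeded 1.03 scaled TPM and no WT library was under 4.61. The second largest decrease was that of the muscle carbonic anhydrase CA3 (2.98 against 23.6 scaled TPM; -2.59). The tenascin TNXB (3.37 against 17.1; -2.05), the testis-type cytochrome oxidase subunit COX6B2 (1.34 against 7.53; -1.87) and the G1 kinase CDK6 (6.32 against 24.1; -1.77) were lower by less than these. Several of the other leading decreases, CHAC1, DDIT4, GPT2, PSAT1 and TRIB3, belong to the amino acid response described next. The pseudogene AC005326.1 (-1.81) was not called in the fit over all 18 libraries or with no filter. It lies at chr7:97870167-97870289, downstream of the promoter stretch of the amino acid response gene ASNS given below. Whether its values hold reads of ASNS was not tested.

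**Figure D2:**
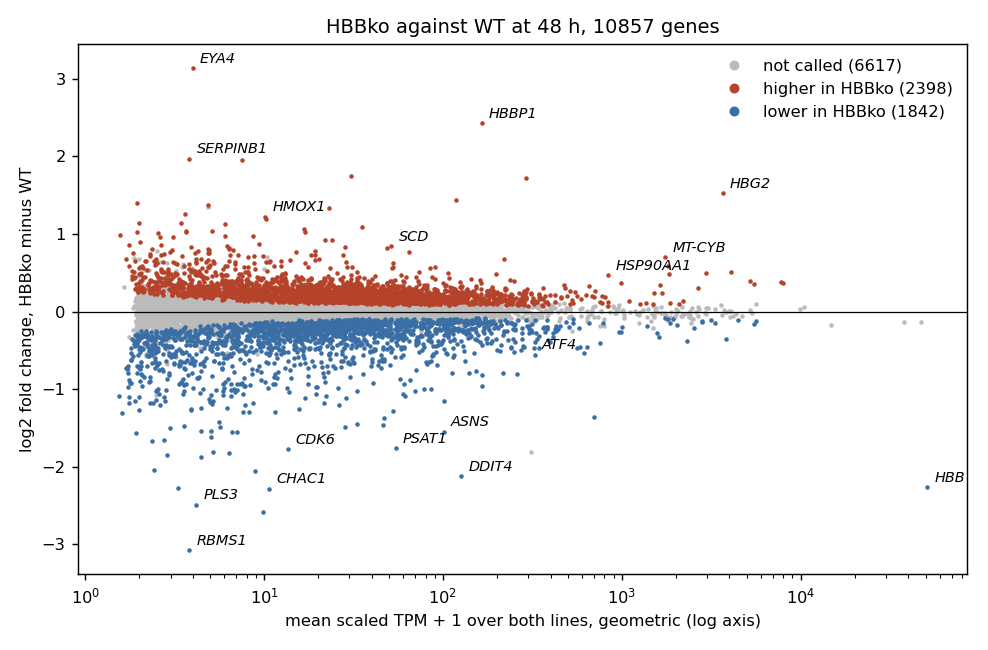
Log2 fold change (HBBko minus WT at 48 h) of each of the 10857 tested genes against its mean level, the geometric mean of scaled TPM + 1 over both lines on a log axis; grey genes were not called, red are the 2398 called higher and blue the 1842 called lower at an adjusted p under 0.05. Large differences are rarer upward than downward, and HBB, at 23097 against 111681 scaled TPM, is the called gene with the highest level.

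ATF4 and the genes of its amino acid response were lower in HBBko. ATF4 (chr22:39519695-39522685, plus strand) measured 268, 266 and 268 in HBBko and 377, 383 and 422 in WT, on average 267 ± 0.962 scaled TPM against 394 ± 24.1 (SD, n = 3 each), and fell 1.47-fold (log2 fold change -0.56 ± 0.04 (SE), adjusted p = 8.7e-05). Of 12 tested ATF4 partners and stress factors, 8 fell and 1 rose (median -0.42); the 1 was FOSL1, which was not called in the fit over all 18 libraries. The pseudokinase TRIB3, a target and feedback inhibitor of ATF4, measured 1.59, 2.01 and 1.96 in HBBko and 6.51, 5.87 and 11.7 in WT (-1.61, adjusted p = 0.00095). ATF3 (1.58 against 6.595 scaled TPM; -1.54, adjusted p = 0.00047), CEBPB (4.700 against 9.36; -0.86), CEBPG (7.72 against 14.9; -0.86) and the pro-apoptotic factor DDIT3, also called CHOP (5.59 against 9.25; -0.63, adjusted p = 0.0024), fell with it. Of 17 eIF2alpha kinases, phosphatase subunits and eIF2B genes, 5 rose and 4 fell (median 0.06), and none of the 4 kinases was called. After rescaling to equal sums the counts were 1 lower and 8 higher. EIF2AK1 measured 178, 179.7 and 185 in HBBko and 181, 194 and 223 in WT (-0.13, adjusted p = 0.15); without WT replicate 1 it was called lower (-0.20, adjusted p = 0.033, limma). The largest changes in that list were an increase of the eIF2B subunit EIF2B3 (0.35, adjusted p = 0.0019) and a decrease of EIF2S2, which encodes eIF2beta (-0.28, adjusted p = 0.0019).

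Of 13 enzymes of serine, glycine and one-carbon synthesis, 5 fell and none rose (4 lower and 3 higher after rescaling to equal sums). PSAT1, the aminotransferase of serine synthesis, measured 28.7, 30.6 and 26.4 in HBBko and 90.1, 97.7 and 111 in WT, a 3.48-fold lower mean (log2 fold change -1.76 ± 0.08 (SE), adjusted p = 7.2e-06). The mitochondrial folate enzymes MTHFD2 (72.2 against 106 scaled TPM; -0.54, adjusted p = 0.00036), SHMT2 (-0.38) and MTHFD1L (-0.36) fell less. Among 18 enzymes of asparagine, arginine, proline and alanine, 10 fell and 4 rose; 5 to 6 were lower without low-value filtering, with rescaling to equal sums or without any single HBBko library. Asparagine synthetase ASNS measured 58.00, 59.3 and 56.1 in HBBko and 153, 161 and 203 in WT (log2 fold change -1.55 ± 0.09 (SE), adjusted p = 2.6e-05). The alanine aminotransferase GPT2 measured 2.52, 2.605 and 2.05 in HBBko and 10.5, 9.43 and 13.2 in WT (-1.82, adjusted p = 3.3e-05). The urea cycle enzyme ASS1 (0.511 against 4.02 scaled TPM; -1.66, adjusted p = 0.0015) and arginase ARG2 (1.81 against 4.68; -0.99) fell too. The urea cycle enzyme ASL rose (0.26, adjusted p = 0.0092). In transsulfuration and glutathione metabolism 6 of 17 genes fell and 4 rose. CHAC1 (chr15:40952962-40956519, plus strand), which degrades glutathione, measured 3.76, 3.697 and 4.02 in HBBko and 21.7, 18.5 and 28.2 in WT (log2 fold change -2.28 ± 0.13 (SE), adjusted p = 1.9e-05), a 5.96-fold lower mean. CTH, the last enzyme of cysteine synthesis from methionine, fell with it (3.72 against 8.02 scaled TPM; -0.93, adjusted p = 0.00015). GCLM, a subunit of the enzyme that starts glutathione synthesis, rose (0.40, adjusted p = 0.00092). For CHAC1, PSAT1, ASNS and GPT2 every HBBko library lay below every WT library, and WT replicate 3 was the highest library for all 4. Groups did not overlap in 4213 of the 4240 called genes and in 54.1% of all tested genes.

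ATF4 with a C/EBP partner binds the C/EBP-ATF response element, which is how many amino acid response genes are known to be switched on. The promoters were searched for its letters (TGATGNAAT or TGATGCAA, either strand; the 2 forms overlap where N is C) in the 250 bases before each RefSeq start. RefSeq promoters (GRCh38.p14) were found for 8529 of the 10857 tested genes, 238 of them through an older symbol. The letters were present for 0.985% of all of these genes, 1.71% of those called lower and 0.308% of those called higher. They were present for 7 of the 49 amino acid response genes called lower, 14.3%, and for 9 of 99 tested members of these lists (the lists on ATF4 partners, amino acid enzymes, transporters, cytosolic synthetases, mTORC1 control, glutathione and secreted factors). The lists were drawn up as genes of this response, so a share above that of all genes was likely from the start. A part of the element in the decreases was not tested. The 7 called lower are shown 5′ to 3′ on the gene's strand with the matched letters in capitals (TTGCATCA is the reverse complement of TGATGCAA).
CHAC1 (chr15:40953251-40953280, plus strand): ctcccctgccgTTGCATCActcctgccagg
AARS (chr16:70289675-70289704, minus strand): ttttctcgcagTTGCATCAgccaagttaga
IARS (chr9:92293698-92293721, minus strand): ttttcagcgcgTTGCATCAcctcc
SLC1A5 (chr19:46784893-46784922, minus strand): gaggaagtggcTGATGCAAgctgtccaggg
CEBPG (chr19:33374060-33374089, plus strand): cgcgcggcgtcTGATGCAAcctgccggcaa
BCAT1 (chr12:24949131-24949159, minus strand): gtcttcctgcTGATGCAATccgctaggtc
MTHFD1L (chr6:150866347-150866375, plus strand): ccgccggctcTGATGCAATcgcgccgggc
The log2 fold changes of these genes were -2.28 for CHAC1, -0.69 for AARS, -0.15 for IARS, -0.53 for SLC1A5, -0.86 for CEBPG, -0.14 for BCAT1 and -0.36 for MTHFD1L. The calls of IARS and BCAT1 were lost after rescaling to equal sums and over all 18 libraries, and that of BCAT1 also without WT replicate 2 or 3 or any single HBBko library (-0.11 to -0.16, adjusted p = 0.064 to 0.13, limma). With the looser letters TGATGNAA, chosen after the promoters were seen, 9 of the 49 matched (18.4%) against 1.93% of all, ATF3 and ASNS being the added ones. The stretch of ASNS holds the form known as its nutrient-sensing element.
ASNS (chr7:97872458-97872487, minus strand): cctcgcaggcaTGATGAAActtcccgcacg
A match of letters is a description of the sequence, and binding was not measured here.

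Transfer RNA charging split by compartment. Of 20 cytosolic aminoacyl-tRNA synthetases, which load amino acids onto tRNA for translation, 13 fell and 2 rose (median -0.22), whereas of 16 mitochondrial ones none fell and 9 rose (median 0.16). The tryptophan enzyme, WARS in the table, measured 116, 119 and 116 in HBBko and 218, 229.7 and 236 in WT (log2 fold change -0.96 ± 0.04 (SE), adjusted p = 3.4e-06). The cysteine, glycine, alanine and methionine enzymes followed (CARS -0.92, GARS -0.81, AARS -0.69, MARS -0.63), and those for arginine (0.33, adjusted p = 0.0011) and histidine (0.17, adjusted p = 0.0031) rose. Of the mitochondrial enzymes EARS2 rose most (17.8 against 12.9 scaled TPM; 0.43, adjusted p = 0.0009). The 13 cytosolic decreases stayed within 1.5 times under all 17 alternatives, but the cytosolic increases went from 2 to 7 after rescaling to equal sums. The mitochondrial count was 14 with rescaling to equal sums, 3 in the fit over all 18 libraries, and 5, 5 and 4 without WT replicate 2, HBBko replicate 1 and HBBko replicate 3.

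Amino acid transporters also fell, 9 of 17 with 2 higher (median -0.23; 8 lower and 5 higher after rescaling to equal sums). The glycine transporter SLC6A9 measured 46.9, 46.8 and 50.2 in HBBko and 90.7, 87.7 and 120.4 in WT (-1.03, adjusted p = 0.00037). SLC7A5, the large neutral amino acid transporter, measured 59.8, 59.1 and 59.6 in HBBko and 111, 111 and 139 in WT (-1.00, adjusted p = 0.00011), and its heavy chain SLC3A2 fell less (109 against 156; -0.51, adjusted p = 0.0011). The cystine transporter SLC7A11 (0.997 against 3.05 scaled TPM; -1.01, adjusted p = 0.00049) and SLC1A4 (0.731 against 1.84; -0.70, adjusted p = 0.0068) fell at low levels, and the glutamine transporter SLC1A5 at a high one (207 against 299.7; -0.53, adjusted p = 0.00088). SLC7A6 rose (0.36, adjusted p = 0.0074). Brakes on mTORC1, the kinase complex that couples amino acids to growth, were among the larger decreases. DDIT4 (REDD1) measured 58.2, 60.2 and 59.5 in HBBko and 228, 235 and 330.0 in WT (log2 fold change -2.12 ± 0.12 (SE), adjusted p = 2.2e-05). Sestrin 2, SESN2, measured 2.85, 2.76 and 2.85 in HBBko and 8.56, 9.09 and 13.6 in WT (-1.55, adjusted p = 0.00021). The translation repressor EIF4EBP1 fell as well (92.5 against 139 scaled TPM; -0.58, adjusted p = 2.6e-05). In all 7 of 21 members of that list fell and 1 rose, and the sestrins SESN1 (0.04) and SESN3 (-0.06) were not called. Of 9 tested stress-induced secreted factors and related genes, 7 fell and none rose. GDF15, a cytokine released by stressed erythroid cells, measured 18.8, 17.9 and 19.3 in HBBko and 43.8, 43.9 and 74.98 in WT (-1.45, adjusted p = 0.00084). TXNIP, an arrestin-like inhibitor of thioredoxin and glucose uptake, measured 66.99, 70.97 and 63.4 in HBBko and 135, 148 and 172 in WT (-1.16, adjusted p = 6.5e-05).

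Cytosolic chaperones were higher in HBBko. Of 26 heat shock genes and cochaperones 19 rose and 1 fell (median 0.26). HSF1, the 1 that fell, by 0.11, lost its call in 9 alternatives. The summed level of the list was 7309.5 to 7387 scaled TPM in HBBko and 5846 to 6067 in WT. HSP90AA1, the inducible form of HSP90, measured 982, 985 and 986 in HBBko and 729, 711 and 697 in WT (log2 fold change 0.47 ± 0.03 (SE), adjusted p = 2.1e-05). HSPH1, an exchange factor of HSP70, measured 88.7, 87.4 and 84.6 in HBBko and 61.6, 61.6 and 59.3 in WT (0.51, adjusted p = 3.6e-05). The HSP90 cochaperone CHORDC1 measured 37.4, 38.6 and 38.6 in HBBko and 26.9, 26.1 and 26.6 in WT (0.51, adjusted p = 4.2e-05). AHSA1, which activates HSP90 (0.42, adjusted p = 0.00015), and the mitochondrial HSPE1 (0.41, adjusted p = 0.00015) rose by similar amounts, but HSPB1 (-0.00) was not called. The increases were each under 1.5-fold. The groups did not overlap for any gene named here that rose, as in 4213 of the 4240 called genes and 54.1% of all tested genes. Of 14 genes of the CCT chaperonin, which folds actin and tubulin, and its partner prefoldin, 10 rose and none fell (median 0.20). TCP1 led (528, 538 and 540.1 in HBBko and 446, 441 and 414 in WT; 0.30, adjusted p = 0.00047), CCT6A (0.27) and CCT8 (0.27). In the endoplasmic reticulum the 24 genes split, with 7 higher (11 after rescaling to equal sums) and 5 lower (median 0.03). HSPA5, the BiP chaperone, rose (77.3 against 62.05 scaled TPM; 0.31, adjusted p = 0.00033), as did HSP90B1 (0.28, adjusted p = 0.0026). HERPUD1, a factor of protein export for degradation, fell (20.1 against 33.8 scaled TPM; -0.72, adjusted p = 0.00033), as did CALR (-0.39, adjusted p = 0.00025).

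The binding site of HSF1 at chaperone genes is the heat shock element, and a form of it made of 3 inverted blocks was searched on both strands in the same 250 bases. It was found for 0.422% of all tested genes with a promoter, for 6 of 22 members of the heat shock list and for 5 of the 16 members that were called higher and had a promoter. The share was 27.3% of the whole list and 31.2% of the members called higher. The members called higher are part of the whole list, and a difference between these shares was not tested. Binding was not measured, and a part of the element in the increases was not tested. The 5 that were called higher are shown with the matched letters in capitals.
HSP90AA1 (chr14:102087112-102087140, minus strand): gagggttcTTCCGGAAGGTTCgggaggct
HSP90AB1 (chr6:44247770-44247798, plus strand): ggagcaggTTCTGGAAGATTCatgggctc
HSPA8 (chr11:123062346-123062374, minus strand): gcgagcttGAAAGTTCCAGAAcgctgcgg
HSPD1 (chr2:197500065-197500090, minus strand): gcattTTCTGGAAAGTTCtggaaccg
CHORDC1 (chr11:90223089-90223117, minus strand): cgcgaccgGAAAATTCGCGAAggttcctg
DNAJB6 held the element too and was called only after rescaling to equal sums (0.03, adjusted p = 0.54 without it).

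Genes of cholesterol and fatty acid synthesis, the targets of the SREBP factors, were higher: 20 of 29 rose and 1 fell (median 0.31). The fatty acid desaturase SCD measured 66.8, 64.4 and 72.97 in HBBko and 38.7, 37.1 and 36.4 in WT (log2 fold change 0.84 ± 0.05 (SE), adjusted p = 2.4e-05). DHCR7, a final enzyme of cholesterol synthesis, measured 32.8, 34.1 and 37.4 in HBBko and 22.8, 22.6 and 20.4 in WT (0.64, adjusted p = 0.00023). INSIG1, which holds back SREBP activation, rose by a similar amount (0.62, adjusted p = 0.00019). Of 27 tested glycolysis and hypoxia genes 15 rose and 2 fell (median 0.23). The glycolytic enzyme ENO1 measured 277, 271 and 283 in HBBko and 188, 179.8 and 151 in WT (0.68, adjusted p = 0.00042). The lactate exporter SLC16A3 (14.6 against 8.98 scaled TPM; 0.65, adjusted p = 0.00086), ALDOC (0.57, adjusted p = 0.00042), GPI (0.56, adjusted p = 0.0013) and HK2 (0.52, adjusted p = 0.0022) rose too. The glucose transporter SLC2A1 fell (203 against 283 scaled TPM; -0.46, adjusted p = 0.009) and lost its call with no filter on low values. In the proteasome 23 of 35 subunits rose and 1 fell (median 0.14), by small amounts. PSMA3 led with 121, 124 and 127 in HBBko and 92.3, 95.4 and 87.9 in WT (0.43, adjusted p = 0.00018), followed by PSMB2 (0.31), PSME3 (0.27), PSMA4 (0.24) and PSMD1 (0.23). The counts of increases of heat shock, CCT, cholesterol, glycolysis and proteasome genes stayed within 1.5 times under all 17 alternatives.

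**Figure D3:**
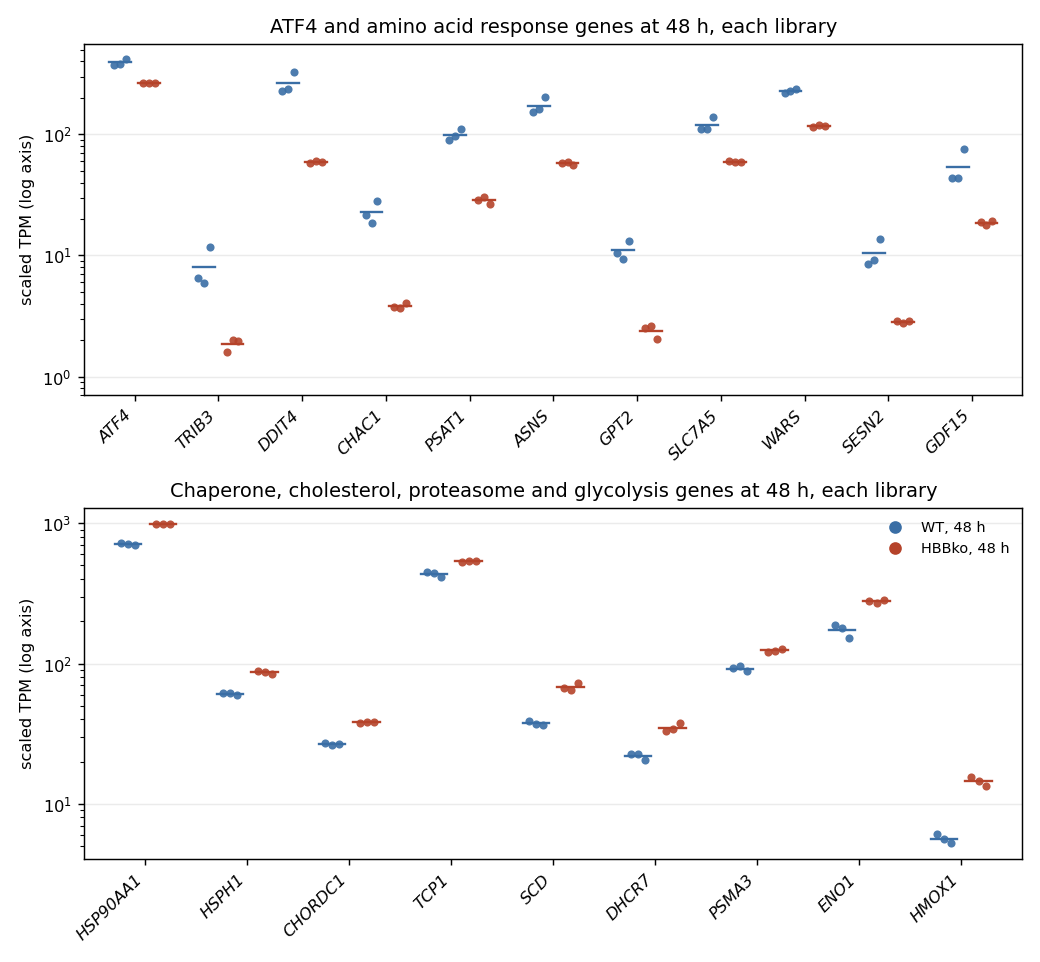
Scaled TPM (log axes) in each 48 h library of ATF4 with genes of the amino acid response (upper panel) and of chaperone, cholesterol, proteasome and glycolysis genes with HMOX1 (lower panel); points are the 3 libraries of WT (blue) and HBBko (red), short lines their means. The upper genes lie lower in all HBBko libraries, as PSAT1 at 28.6 against 99.5 on average, and the lower ones higher, as SCD at 68.04 against 37.4.

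Transcripts of the mitochondrial genome were higher in HBBko, 11 of 13 with none lower (median 0.38), and their sum was 61835 to 66019 scaled TPM in HBBko and 49664 to 52409.6 in WT. MT-CYB, a subunit of complex III, measured 2254, 2168 and 2284 in HBBko and 1401, 1368 and 1350.4 in WT (log2 fold change 0.70 ± 0.03 (SE), adjusted p = 6.7e-06), followed by the complex I subunits MT-ND6 (0.58), MT-ND4L (0.51), MT-ND4 (0.50) and MT-ND5 (0.49). MT-ND1 (0.05) and MT-CO1 (0.06) were not called, though both were after rescaling to equal sums. The mitochondrial genome is transcribed from both strands into long precursors, and the library kit named in the labels does not mark the strand, so MT-ND6, encoded opposite to the others, may hold reads of its antisense strand. Of 35 nuclear genes of the respiratory chain 19 rose and 1 fell (median 0.11), cytochrome c, CYCS, most (0.25, adjusted p = 0.0029). This count was 33 with rescaling to equal sums, 5 in the fit over all 18 libraries, 8 without a filter, and 10, 11, 5 and 7 without WT replicate 1 and HBBko replicates 1, 2 and 3. The 1 decrease was the testis-type subunit COX6B2, with 1.64, 1.103 and 1.27 in HBBko and 7.902, 8.04 and 6.66 in WT. The mitochondrial share of the library sum moved with the line (above), and its part in the other gene groups was not tested.

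Of 20 genes of the oxidative response under NRF2 and BACH1 6 rose and 4 fell (10 and 1 after rescaling to equal sums, 3 and 1 over all 18 libraries). HMOX1, which breaks down heme and is repressed by BACH1, measured 15.6, 14.6 and 13.3 in HBBko and 6.11, 5.59 and 5.22 in WT (log2 fold change 1.22 ± 0.07 (SE), adjusted p = 2.3e-05). Malic enzyme ME1, a source of NADPH, rose as well (3.31 against 1.22 scaled TPM; 0.96, adjusted p = 4.3e-05), as did the glutathione conjugate exporter ABCC1 (0.46, adjusted p = 0.0022). NFE2L2, which encodes NRF2, fell (-0.28, adjusted p = 0.0012) and BACH1 was not called (-0.14). Of 11 peroxiredoxins and other antioxidant enzymes 5 rose, 3 without any single HBBko library, and 3 fell (1 lower and 7 higher after rescaling). The red cell peroxiredoxin PRDX2 fell (3392 against 4325 scaled TPM; -0.35, adjusted p = 0.0015), and PRDX4 (0.34, adjusted p = 0.00055) and PRDX1 (0.27, adjusted p = 0.00064) rose. Heme synthesis and transport had 6 of 21 lower (3 with no filter or over all 18 libraries) and 4 higher (median -0.08); after rescaling the counts were 4 lower and 7 higher. The second enzyme of the pathway, ALAD, fell (159.8 against 213 scaled TPM; -0.41, adjusted p = 0.0017). The heme exporters diverged, with ABCG2 lower (-0.77, adjusted p = 0.0063) and FLVCR1 higher (0.55, adjusted p = 0.0052). Of 22 iron genes 10 fell and 4 rose, with 3 lower and 6 higher after rescaling to equal sums and 6 lower without HBBko replicate 2. Erythroferrone, ERFE, the hormone by which erythroblasts lower hepcidin, measured 112, 118 and 119 in HBBko and 185, 183 and 233 in WT (-0.77, adjusted p = 0.00046). The transferrin receptor TFRC measured 1457, 1435 and 1450.0 in HBBko and 1774, 1764 and 1904 in WT (-0.32, adjusted p = 0.0004).

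Many genes of red cell maturation were lower on the authors' scale, fewer after rescaling to equal sums. Of 34 genes of the membrane, skeleton and blood groups 23 fell and none rose (median -0.25), but 12 were lower and 3 higher after rescaling to equal sums. TSPO2, a cholesterol transport protein of erythroblasts, measured 12.6, 13.6 and 13.95 in HBBko and 28.5, 28.2 and 38.9 in WT (-1.18, adjusted p = 0.00024). The water channel AQP1 measured 82.4, 83.5 and 86.3 in HBBko and 134, 138 and 169 in WT (-0.79, adjusted p = 0.00031). The glycerol channel AQP3 (-0.63, adjusted p = 0.0016) and the adhesion receptor CD44 (-0.49, adjusted p = 0.00013) fell too. The anion exchanger SLC4A1, band 3 of the red cell, measured 476, 517 and 517 in HBBko and 637, 643 and 939.5 in WT (-0.53, adjusted p = 0.016). Its call was lost without HBBko replicate 1 (-0.49, adjusted p = 0.054), with no filter and in the fit over all 18 libraries. Of 33 late maturation genes 17 fell and none rose, the decreases including TMCC2 (-0.64, adjusted p = 0.0042). The counts were 10 lower and 4 higher after rescaling, 9 lower and none higher with no filter and 19 lower and 3 higher without WT replicate 3. Of 34 autophagy and mitophagy genes 12 fell and 1 rose, against 7 lower and 7 higher after rescaling and 7 lower and none higher over all 18 libraries. The mitophagy receptor OPTN fell most (38.8 against 63.5 scaled TPM; -0.69, adjusted p = 0.0004). Of 18 genes of erythropoietin receptor signalling 10 fell and 2 rose (median -0.31); the decreases held within 1.5 times in all alternatives, and the counts were 9 lower and 6 higher after rescaling. The inhibitor SH2B3 (LNK) measured 14.9, 14.9 and 15.4 in HBBko and 26.1, 25.5 and 31.8 in WT (-0.84, adjusted p = 0.00021), and the STAT5 target CISH fell as well (75.6 against 109 scaled TPM; -0.52, adjusted p = 0.00071). The kinases LYN (0.40, adjusted p = 0.0015) and PIM2 (0.33, adjusted p = 0.0004) rose.

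Markers of other cells were low and mostly overlapped between the lines. The summed myeloid markers were 3.98 to 5.23 scaled TPM in HBBko and 4.55 to 5.25 in WT, with CTSG and S100A9 listed at 0 in all 6 libraries and CD68, the 1 tested, not called. Megakaryocyte markers summed to 7.16 to 8.72 and 7.99 to 10.4, with PF4, PPBP and SELP at 0 and neither of the tested 2 called. Lymphoid markers (CD2, CD3E, CD79B and MS4A1 at 0) and stromal and endothelial markers stayed under 1 scaled TPM in sum in every library. Mast cell, basophil and eosinophil markers summed to 46.3 to 51.8 and 48.03 to 48.3. Of 4 tested, the mast cell tryptase TPSAB1 rose, with 7.104, 5.68 and 6.06 in HBBko and 4.37, 4.17 and 4.13 in WT (0.47, adjusted p = 0.0024). The calls of PRG2 (0.34, adjusted p = 0.047) and of GATA2, which erythroid progenitors also express (-0.16, adjusted p = 0.031), were lost in 9 and 8 alternatives. The part of these markers in the other results was not tested. Of 15 markers of erythroid cells 8 were lower, HBB among them, and none higher; 5 were lower without HBBko replicate 1 or over all 18 libraries, and 4 with no filter. After rescaling the counts were 6 lower and 2 higher. Of 9 tested early progenitor genes 4 fell and 2 rose, CDK6 (6.03, 6.78 and 6.17 in HBBko and 24.5, 26.6 and 21.2 in WT) far more than RUNX1 (-0.42, adjusted p = 0.0018). Only 2 were lower after rescaling or without WT replicate 1 or 2 or HBBko replicate 1 or 2.

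Most histone genes fell, and the stretches of the genome that hold them had the lowest medians. Of 19 tested histone genes 15 fell and 1 rose (median -0.59), and 8 of 10 fell with a filter of 5 scaled TPM. HIST1H4C measured 15.1, 12.5 and 14.8 in HBBko and 30.9, 27.5 and 35.1 in WT (-1.09, adjusted p = 0.00016), and HIST1H4A measured 3.896, 3.59 and 3.95 in HBBko and 11.7, 8.51 and 12.6 in WT (-1.29, adjusted p = 0.00023). HIST1H3J had the largest decrease and measured 3.91, 2.56 and 2.93 in HBBko and 10.4, 9.59 and 13.4 in WT (-1.55, adjusted p = 0.0002). Canonical histone mRNA lacks a poly(A) tail, so the levels here are those of the transcripts that the kit, which selects poly(A) RNA, recovers. No chromosome was shifted as a whole, medians being -0.01 to 0.05 on the nuclear chromosomes. In 416 windows of 25 neighbouring tested genes (GENCODE v29 positions), 2 adjacent windows on chromosome 6 that hold the histone clusters were the lowest. Their medians were -0.66 for chr6:27138588-28302549 (19 of 25 lower, 1 higher) and -0.46 for chr6:26055787-27135291 (16 lower, 4 higher), and the next lowest was -0.17. Of 28 genes of S phase and replication 13 rose and 2 fell (median 0.09), with the replication factor CDC45 among them (0.28, adjusted p = 0.00043). Those of G2 and mitosis had 13 of 25 lower and none higher (median -0.11), HMMR (-0.33, adjusted p = 0.00047) and KIF20A (-0.32, adjusted p = 0.0014) first. The G2 and mitosis count was 3 lower and 5 higher after rescaling to equal sums and 4 lower over all 18 libraries, and the S phase count 22 and 8 higher. Of 22 arrest and p53 target genes 10 fell and 2 rose (7 lower and 4 higher after rescaling). The apoptosis gene BBC3, also called PUMA, measured 18.7, 17.9 and 17.8 in HBBko and 28.4, 28.7 and 33.2 in WT and fell (-0.70, adjusted p = 0.00018). PMAIP1, or NOXA, another apoptosis gene (8.05 against 13.3 scaled TPM; -0.66, adjusted p = 6.8e-05), and the stress gene GADD45B (-0.86, adjusted p = 0.0011) fell as well. The cyclin kinase inhibitor CDKN1A rose from a low level, with 3.15, 2.25 and 2.35 in HBBko and 1.04, 0.589 and 1.32 in WT (0.86, adjusted p = 0.0034).

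Of 29 actin-binding and cytoskeletal genes 13 fell and 4 rose, against 8 lower and 8 higher after rescaling and 7 lower and 3 higher over all 18 libraries. Besides PLS3 and CNN3 above, the leukocyte plastin LCP1 measured 18.2, 18.99 and 18.8 in HBBko and 10.6, 11.1 and 9.93 in WT and rose (0.77, adjusted p = 3.5e-05). The actin-sequestering thymosin TMSB4X fell (12.1 against 22.7 scaled TPM; -0.83, adjusted p = 0.0016). Of 13 tested interferon response genes 6 fell and 1 rose (5 lower and 4 higher after rescaling). IRF1, which measured 12.6, 12.1 and 12.6 in HBBko and 18.6, 18.6 and 24.1 in WT, fell (-0.66, adjusted p = 0.0012), as did IFI27 (-0.64, adjusted p = 0.00083), and BST2 rose (0.43, adjusted p = 0.0006). Of 60 cytosolic ribosomal protein genes 47 were not called (median -0.00). Of the rest 5 rose and 8 fell, but 44 were higher and none lower after rescaling to equal sums, 11 higher and 19 lower with quantile normalization. The lower count was 5 when WT replicate 2 or HBBko replicate 1 was left out. Among 9 metallothionein and zinc genes 3 were called higher, MT1X, MT2A and MT1G, and each call was lost in the fit over all 18 libraries. Of 10 tested genes of the fetal and neonatal programme other than gamma-globin, 3 rose and 2 fell (1 lower and 6 higher after rescaling). HBZ and HBE1, given above, were among those that rose, and the factor ARID3A fell (7.84 against 11.8 scaled TPM, -0.54, adjusted p = 0.0013, limma). HMGA2, also in this list, did not reach the filter. It measured 0.036, 0.016 and 0.050 in HBBko and 0.844, 0.939 and 1.02 in WT. The fetal RNA-binding protein LIN28B was called at 0.22 (adjusted p = 0.038), a call lost in 8 alternatives.

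**Figure D4:**
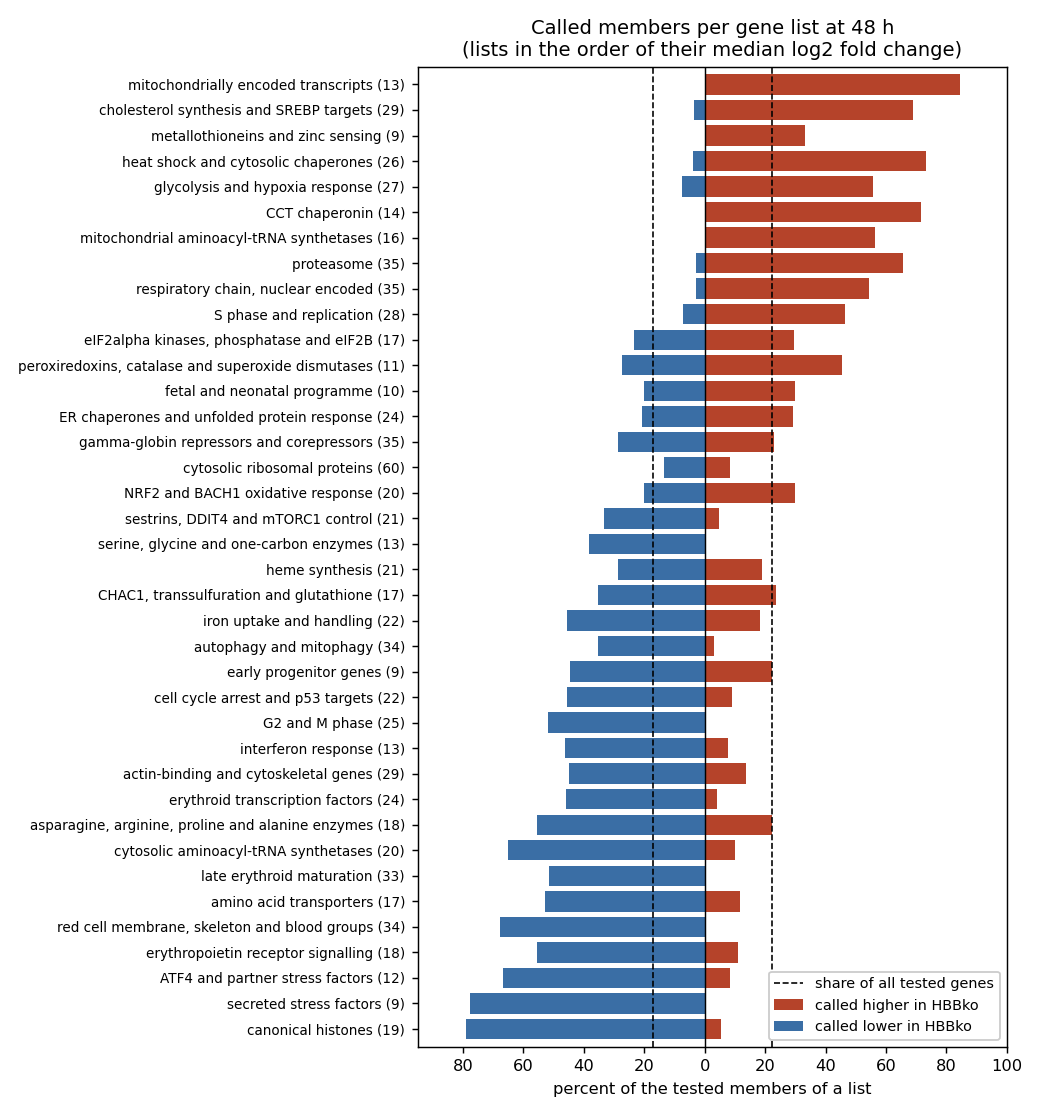
Share of the tested members of each list (number in brackets, lists of 9 or more) that was called higher (red, to the right) or lower (blue, to the left) in HBBko at 48 h, in percent, with lists ordered by median log2 fold change; dashed lines mark the shares over all tested genes, 22.1% higher and 17.0% lower. Mitochondrially encoded, cholesterol, metallothionein and heat shock genes are at the top, histone, secreted stress and ATF4 partner genes at the bottom.

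Whether the 48 h difference was that of the other stages was tested by interactions in the fit over all 18 libraries; both interactions share the 48 h libraries. From undifferentiated cells to 48 h the difference between the lines changed in 1417 genes, 13.1% of those tested, and from 48 h to 5 d in 2749, 25.3%. For HBB the log2 fold changes were -1.66 undifferentiated, -2.26 at 48 h and -2.63 at 5 d, and neither change passed (adjusted p = 0.1 and 0.27). The first passed without undifferentiated WT replicate 3 (-0.88, adjusted p = 0.0006) and with the replicate block (adjusted p = 0.049). For HBG2 they were 0.76 undifferentiated, 1.53 at 48 h and 3.43 at 5 d, and the change after 48 h passed (1.91 ± 0.28, adjusted p = 0.00011). That before 48 h did not (0.77, adjusted p = 0.078) unless undifferentiated WT replicate 1 or 48 h WT replicate 3 was left out (0.94 and 0.95, adjusted p = 0.025 and 0.039), libraries were rescaled (0.87) or the replicate block was used. HBZ gave 1.16 undifferentiated, 1.43 at 48 h and 3.19 at 5 d (1.76 ± 0.20, adjusted p = 1.2e-05 after 48 h). For HBD they were 0.01 undifferentiated, -1.37 at 48 h and -0.20 at 5 d. Its mean was 28.02 against 74.9 scaled TPM at 48 h and 473 against 543 at 5 d. Both interactions passed (-1.38 ± 0.18, adjusted p = 0.00038 before and adjusted p = 0.00014 after). For ATF4 the difference was -0.97 undifferentiated, -0.56 at 48 h and -0.00 at 5 d, and the change after 48 h passed (0.55, adjusted p = 0.0053). The change before 48 h (0.41, adjusted p = 0.048) was lost without any single HBBko library of either stage or 48 h WT replicate 1 or 2 (0.36 to 0.44, adjusted p = 0.065 to 0.11). For CHAC1 it was -3.60 undifferentiated, -2.28 at 48 h and -1.20 at 5 d (adjusted p = 0.022 and 0.031), with the first change lost on leaving out 1 of 3 libraries in turn and the second on leaving out 1 of 7 (0.92 to 1.29, adjusted p = 0.05 to 0.081). HMOX1 reversed: it was higher in HBBko at 48 h and lower at 5 d, 0.40 undifferentiated, 1.22 at 48 h and -2.81 at 5 d (-4.03 ± 0.21, adjusted p = 7.9e-09). Its WT mean went from 5.64 to 98.1 scaled TPM and its HBBko mean from 14.5 to 13.1. CDKN1A reversed as well (-2.74 ± 0.21, adjusted p = 3e-07), from 2.59 against 0.985 scaled TPM at 48 h to 3.62 against 15.8 at 5 d. Of the 13 mitochondrial transcripts 9 had a higher difference at 48 h than undifferentiated, medians of the list being -0.07, 0.38 and 0.66 over the 3 stages. Of the 29 cholesterol genes the difference moved up in 12 from 48 h to 5 d and down in 1 (medians 0.27, 0.31 and 0.73). In the G2 and mitosis list 15 of 25 genes changed upward from 48 h to 5 d and none downward (medians -0.27, -0.11 and 0.18). Lists of the amino acid response did not all follow ATF4. Medians were -0.67, -0.42 and -1.02 for ATF4 partners and stress factors and -0.87, -0.54 and -1.01 for secreted factors. They were -0.38, -0.22 and -0.10 for cytosolic synthetases and -0.53, -0.23 and -0.13 for transporters. Of the 12 ATF4 partners and stress factors 4 moved down after 48 h and 1, ATF4 itself, up. At 5 d TRIB3 stood at -2.44 and DDIT3 at -1.33.

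**Figure D5:**
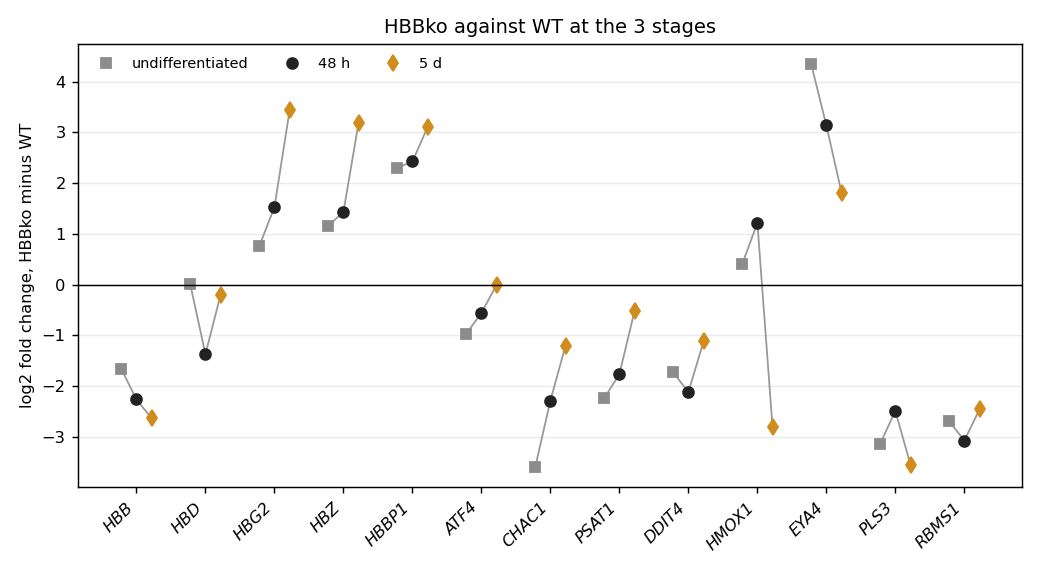
Log2 fold change (HBBko minus WT) of 13 named genes undifferentiated (grey squares), at 48 h (black circles) and after 5 d (orange diamonds), from the fit over all 18 libraries, with lines joining the stages of a gene. HBG2 and HBZ move up to 3.43 and 3.19 at 5 d, ATF4 moves to -0.00, HBD is lowest at 48 h, and HMOX1 changes sign between 48 h and 5 d.

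The authors' deposited table of this comparison lists 15458 genes, of which 4522 have a q under 0.05, 2301 higher and 2221 lower. Of the genes with a q in the authors' deposited table that were also tested here, 10537 in all, the authors call 4028 and limma called 4142. Both called 3729, 90.0% of the calls here and 92.6% of theirs, every one in the same direction. Both rest on the same libraries. HBB has a log2 fold change of -2.28 in the authors' deposited table but no p or q value there. The smallest q in the authors' deposited table is that of DSG2, which encodes the junction protein desmoglein 2, with a log2 fold change of -3.30. Its scaled TPM were 0.312, 0.354 and 0.313 in HBBko and 3.33, 3.36 and 2.93 in WT (-1.66, adjusted p = 7.6e-06 with limma). EYA4 has 5.08 in the authors' deposited table and 3.14 here, where the pseudocount of 1 pulls low genes toward 0. A further 494 genes called in the authors' deposited table did not reach the filter of 1 scaled TPM here, among them the chromatin protein gene HMGA2, listed there with -4.77.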

How the data were processed

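RNA was measured by sequencing of 18 HUDEP-2 libraries, 3 in each of 6 groups, made with an Illumina TruSeq RNA kit per the labels' protocols. The authors deposited 1 table of transcript abundance (TPM) per gene symbol, scaled between libraries by a step not given in the sources used here, so the values are treated as a signal and not as TPM. kallisto, sleuth and hg38 are named by the submitters' processing notes, without versions. The authors' deposited 48 h table holds log2 fold changes, p-values and q-values per gene, per the file headers. Column names hold stage and replicate, but for the line they have thal or wen, prefixes that no label explains. From the names alone thal was read as HBBko (thalassemia) and wen as WT, and each direction between the lines rests on that reading. Checked afterwards, HBB was lower in the thal columns at each stage.

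From these, log2(scaled TPM + 1) was fitted with limma 3.58.1 (R 4.3.3, trend on the mean) over the 6 libraries at 48 h, for the 10857 genes with at least 1 scaled TPM in 3 of the 6, with Benjamini-Hochberg adjustment and calls at 0.05. A fold change on this scale understates changes of low genes. The plan had assumed unscaled TPM, and the test was kept. Changes between stages were tested as interaction contrasts over all 18 libraries. The fit was tested on simulated data. Shares used two-sided exact permutation tests (scipy 1.17.1). Of 944 list symbols 943 were found, 40 under an older symbol. The members and the 46 lists, which overlap, were chosen with earlier results of these data known. Named genes are 17 fixed ones, the 15 largest called changes in each direction without overlap and with a mean of at least 5 in the higher group, up to 5 called members per list and direction, and the 5 largest per interaction and direction. DSG2, IARS, BCAT1, HSPA8, HSP90AB1, HSPD1, DNAJB6, SESN1, SESN3, MT-ND1, MT-CO1, SLC3A2, BACH1, HSPB1, CD68, HMGA2 and AC114801.3 were added after their values were seen. Positions are GENCODE v29 (GRCh38) and promoters RefSeq (GRCh38.p14). Alternatives covered scaling, pseudocount, filter, library weights, the replicate block, all 18 libraries and leaving out each library. Results for some genes are not reported here.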

Additional observations from a re-analysis of the deposited data

Results flagged for a closer look

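The genes listed here come from the fixed genes, those with the largest changes at 48 h and those with the largest interactions. Their difference between HBBko and WT was not the same at 48 h as at another stage by an interaction test. Those with the largest interactions were chosen by that same test, so their passing was fixed in advance. Values are interactions, that is changes of the log2 difference (limma, 18 libraries, adjusted p of 0.048 or less for the first set and 0.046 or less for the second). A move does not give the sign of the difference. PLS3 moved up from -3.13 undifferentiated to -2.49 at 48 h, and EYA4 moved down from 4.35 to 3.14. Of 297 genes followed, 74 and 126 passed the 2 tests, beside 13.1% and 25.3% of all tested genes. Most of the 297 were chosen for their differences in these data. The 20 and 30 listed here are among those that passed or among the largest in the whole table.

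From undifferentiated cells to 48 h the difference moved up for the metallothioneins MT1X (1.98), MT1G (1.72) and MT2A (1.61), for MAPRE3 (1.54), PPARD (1.41), CHAC1 (1.31), HMOX1 (0.82), SERPINB1 (0.80), HBE1 (0.70), PLS3 (0.64) and ATF4 (0.41). It moved down for RHOB (-1.98), the actins ACTG1 (-1.81) and ACTB (-1.71), TTC39A (-1.38), HBD (-1.38), PITX1 (-1.24), EYA4 (-1.21), TNXB (-1.06) and CDK6 (-0.98). The fitted differences of ACTB and ACTG1 were positive before differentiation (1.19 and 0.88) and negative at 48 h (-0.52 and -0.93), and TTC39A likewise (0.87 and -0.51). Undifferentiated libraries were spread widely for both actins. ACTB averaged 162 ± 63.6 scaled TPM in HBBko and 79.0 ± 60.4 in WT, and ACTG1 234 ± 70.1 and 142 ± 87.6 (SD). Their sign before differentiation is therefore uncertain. The spread was smaller for TTC39A (13.9 ± 0.463 in HBBko and 7.16 ± 0.968 in WT).

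From 48 h to 5 d it moved up for the linker histone HIST1H1C (2.56), AC010323.1 (1.97), FTCD (1.93), HBG2 (1.91), HBZ (1.76), HBG1 (1.70), SSUH2 (1.32), HBE1 (1.29), PSAT1 (1.25), HBD (1.17), COX6B2 (1.13), CHAC1 (1.08), DDIT4 (1.00), TMEM161B (0.70), HBBP1 (0.67), TNXB (0.63), RBMS1 (0.62), ATF4 (0.55), AHSP (0.40) and BEX1 (0.32). It moved down for HMOX1 (-4.03), CDKN1A (-2.74), MT2A (-2.27), MT1G (-2.27), ALG1L13P (-2.08), EYA4 (-1.33), PLS3 (-1.06), CBWD3 (-1.01), PAPSS1 (-1.00) and CNN3 (-0.34). Both sets share the 48 h libraries. The calls of ATF4 in the first set and of CHAC1 in both were lost without some single libraries, as given above.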

How the results depend on the processing

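Against 4240 genes called, rescaling to equal sums gave 5010 higher and 879 lower, and the fit over all 18 libraries gave 2189 (1128 higher, 1061 lower). Equal sums over all but the globin genes gave 2160 higher and 1930 lower, and median-of-ratios scaling 2146 and 1996. With no filter 3176 of 23797 genes were called. Calls of at least 2-fold, 114 in all, were 29 with a pseudocount of 5, 163 with 0.5 and 76 with a filter of 5 scaled TPM. Leaving out 1 library gave 2942 to 4166 called, 1586 to 2263 higher and 1356 to 1903 lower. The lowest counts were without HBBko replicate 2, and without it the higher count fell by over 1.5 times. The 1417 genes whose difference changed from undifferentiated cells to 48 h were 702 to 2248, the lowest without undifferentiated HBBko replicate 1 and the highest without undifferentiated WT replicate 1; without 48 h WT replicate 1 or 2 they were 850 and 938, and without 48 h HBBko replicate 1, 2 or 3 they were 775, 800 and 896. With the replicate block 3957 genes were called; the replicate numbers did not pair the libraries, since deviations of same-numbered libraries correlated at -0.02, -0.00 and 0.02. HBA1 and HBA2 reversed with quantile normalization (0.87 and 0.45), which works by rank, and their rank relative to HBB differed between the lines. EIF2S3 (0.030), HSF1 (0.033), RPL18 (0.0097), RPL8 (0.025) and RPS12 (0.026) reversed on rescaling to equal sums. The cause of the reversals on rescaling was not tested. Of 297 named genes 101 changed call in at least 1 of 17 alternatives, most often over all 18 libraries, and none changed its call at 48 h with a pseudocount of 0.5 or 5. With 5 the change of CHAC1 after 48 h was no longer called (0.46). The files hold no counts, so depth sets no limit that can be stated.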

Other observations

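The metallothioneins MT1X, MT2A and MT1G, which bind zinc and copper and are named here for their interactions, had higher means at 48 h than at the other stages in both lines, a difference between stages that was not tested. MT1X averaged 67.9 ± 7.67 scaled TPM in HBBko and 48.9 ± 7.17 in WT at 48 h, 6.17 ± 3.87 and 19.8 ± 14.1 before differentiation, and 1.896 ± 0.276 and 6.95 ± 1.63 at 5 d (SD, n = 3 each). MT2A averaged 49.98 ± 4.86 and 39.7 ± 2.21 at 48 h, and 4.61 ± 1.55 and 20.2 ± 1.96 at 5 d. The HBBko mean was thus above the WT mean at 48 h and below it at the other stages. The undifferentiated WT libraries were spread widely.

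The processed pseudogene AC114801.3 had a large fitted difference that was not called. It measured 39.9, 603 and 52.5 scaled TPM in HBBko and 657, 344 and 253 in WT (log2 fold change -1.82, adjusted p = 0.15, limma), so HBBko replicate 2 lay inside the WT range and the other 2 far below it.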
